A study of Mus musculus with 4 samples.

Results

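The core circadian clock genes were examined for ATF4 occupancy in primary mouse cortical neurons. The 10 genes were Arntl (the older symbol of Bmal1), Clock, Per1, Per2, Per3, Cry1, Cry2, Nr1d1, Nr1d2 and Dbp, out of 21887 coding genes in the annotation. They were chosen by name as parts of the clock, after a high-ranking peak near Arntl had been seen in these data. Peaks were then chosen by the position of their summit, inside a gene or within 50 kb of it. The Arntl site was therefore selected on its fold and rank, and its values are a description with no test.

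Chromatin came from CD1 mouse neurons, prepared from E14.5 to E15 cortex, given lentivirus on day 6 and harvested on day 11. The control neurons are labelled shControl and WT, and the others shOpa1 and Opa1 knock-down. Opa1 encodes a GTPase of the inner mitochondrial membrane. All cultures received cytosine arabinoside at 2 µM against dividing cells. Of 4 libraries, the 2 ATF4 immunoprecipitations were used, 1 per group, and the IgG and input libraries of shControl neurons were not analysed here. The labels do not say how many embryos or which hairpin sequence stood behind each library. Peak lists do not measure expression, so the neuronal identity, the Opa1 level and the clock phase of the cultures were not checked.

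In the clock, the proteins of Arntl and Clock pair to bind E-boxes and drive transcription of Per, Cry, Nr1d1, Nr1d2 and Dbp. PER and CRY proteins return to inhibit that pair. REV-ERB proteins, from Nr1d1 and Nr1d2, repress Arntl through elements that ROR proteins use to activate it. Clock oscillations run in most tissues, brain cortex included. ATF4, the main transcription factor of the integrated stress response, belongs to the bZIP family, as do DBP and NFIL3, and commonly binds composite elements with C/EBP partners.

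The promoter windows of the genes nearest the sites below are shown first, because distances to a gene's start run to the nearest of them. They are RefSeq windows of GRCm38.p6, the assembly with the coordinates of mm10, from 250 bases before to 50 bases after an annotated transcription start, read 5′ to 3′ on the strand of the gene. Capitals mark a match, on either strand, to any of 5 motifs: the C/EBP-ATF composite core (TGATGNAA), the cAMP response element (TGACGTCA), the E-box (CACGTG), the REV-ERB/ROR core (TAGGTCA) and the D-box (TTATGTAA or TTACGTAA). The windows lie at chr7:113141966-113142265 (minus strand) for the lncRNA gene 4930543E12Rik, chr7:113207215-113207514 and chr7:113207261-113207560 (plus strand) for Arntl, chr11:69099902-69100201 and chr11:69098699-69098998 (plus strand) for Per1, and chr2:92434020-92434319 (minus strand) for Cry2. For Arntl and Per1 the window whose start is nearer to the site comes first, and the 2 Arntl windows overlap.
4930543E12Rik: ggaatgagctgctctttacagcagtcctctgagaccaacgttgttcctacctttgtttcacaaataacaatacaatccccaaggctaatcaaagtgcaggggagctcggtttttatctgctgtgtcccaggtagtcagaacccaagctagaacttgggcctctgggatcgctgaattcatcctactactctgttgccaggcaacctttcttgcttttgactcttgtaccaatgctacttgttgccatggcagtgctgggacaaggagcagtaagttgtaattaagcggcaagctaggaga
Arntl, nearer start: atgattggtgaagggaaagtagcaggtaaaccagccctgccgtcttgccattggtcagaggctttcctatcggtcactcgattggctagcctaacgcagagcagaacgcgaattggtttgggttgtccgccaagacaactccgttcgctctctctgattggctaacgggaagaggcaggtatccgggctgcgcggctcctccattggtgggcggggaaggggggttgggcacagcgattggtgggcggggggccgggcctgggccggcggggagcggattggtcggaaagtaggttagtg
Arntl, farther start: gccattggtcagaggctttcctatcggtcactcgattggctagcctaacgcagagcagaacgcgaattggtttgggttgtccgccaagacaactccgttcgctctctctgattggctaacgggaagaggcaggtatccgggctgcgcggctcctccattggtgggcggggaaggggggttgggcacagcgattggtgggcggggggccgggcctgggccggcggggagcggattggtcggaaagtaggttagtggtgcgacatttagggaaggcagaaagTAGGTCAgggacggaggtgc
Per1, nearer start: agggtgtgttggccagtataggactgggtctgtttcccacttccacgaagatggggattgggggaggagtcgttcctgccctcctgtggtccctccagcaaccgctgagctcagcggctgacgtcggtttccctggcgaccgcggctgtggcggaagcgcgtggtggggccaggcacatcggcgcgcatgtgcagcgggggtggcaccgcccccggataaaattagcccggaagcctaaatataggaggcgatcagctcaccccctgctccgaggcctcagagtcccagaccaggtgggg
Per1, farther start: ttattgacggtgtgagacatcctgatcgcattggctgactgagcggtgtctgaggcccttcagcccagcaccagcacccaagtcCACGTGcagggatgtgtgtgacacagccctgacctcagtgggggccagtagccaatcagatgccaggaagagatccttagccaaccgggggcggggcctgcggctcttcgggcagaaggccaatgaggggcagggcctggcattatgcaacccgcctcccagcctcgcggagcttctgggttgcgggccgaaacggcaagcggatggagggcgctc
Cry2: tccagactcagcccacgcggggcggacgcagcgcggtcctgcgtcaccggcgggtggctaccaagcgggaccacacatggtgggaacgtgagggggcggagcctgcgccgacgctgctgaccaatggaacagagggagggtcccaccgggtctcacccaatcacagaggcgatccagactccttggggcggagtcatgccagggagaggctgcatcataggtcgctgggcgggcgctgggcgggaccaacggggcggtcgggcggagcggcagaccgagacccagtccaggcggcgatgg

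No peak of either list overlapped any of the 13 promoter windows given for 9 of the 10 genes. Per2 had no entry. The composite core and the cAMP response element were found in 0 of the 9 genes' windows, and in 3.97% and 1.79% of all 32851 promoter windows. The Arntl window with the farther start holds the REV-ERB/ROR core 30 bases after that start, a motif present in 2.61% of all windows. An E-box stood in the Per1 window with the farther start and in the window of Cry1 (7.15% of all windows), and the D-box in that of Per3 (1.06%). The windows at the nearer starts of Arntl and Per1, and those of Cry2 and 4930543E12Rik, hold none of the 5 motifs. These matches describe letters only. The sequences under the peaks themselves were not used here.

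A summit inside or within 50 kb was listed for 1 of the 10 genes in control neurons and for 3 of 10 after Opa1 knock-down. Over all coding genes the share was 0.927% with control peaks (203 genes) and 6.23% with knock-down peaks (1363 genes). Because the members were chosen with the Arntl peak in view, nothing is read from these shares. In the knock-down list longer genes had the higher shares, from 4.71% of genes under 20 kb to 6.71% at 20 to 100 kb and 12.1% at 100 kb or more, the class that holds Arntl. In the control list the shares of the same classes were 0.92%, 0.88% and 1.11%, in the same order. The 3 genes with a knock-down summit were Arntl, of the positive arm, and Per1 and Cry2, of the repressor arm. The control list added no gene to these.

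**Figure D1:**
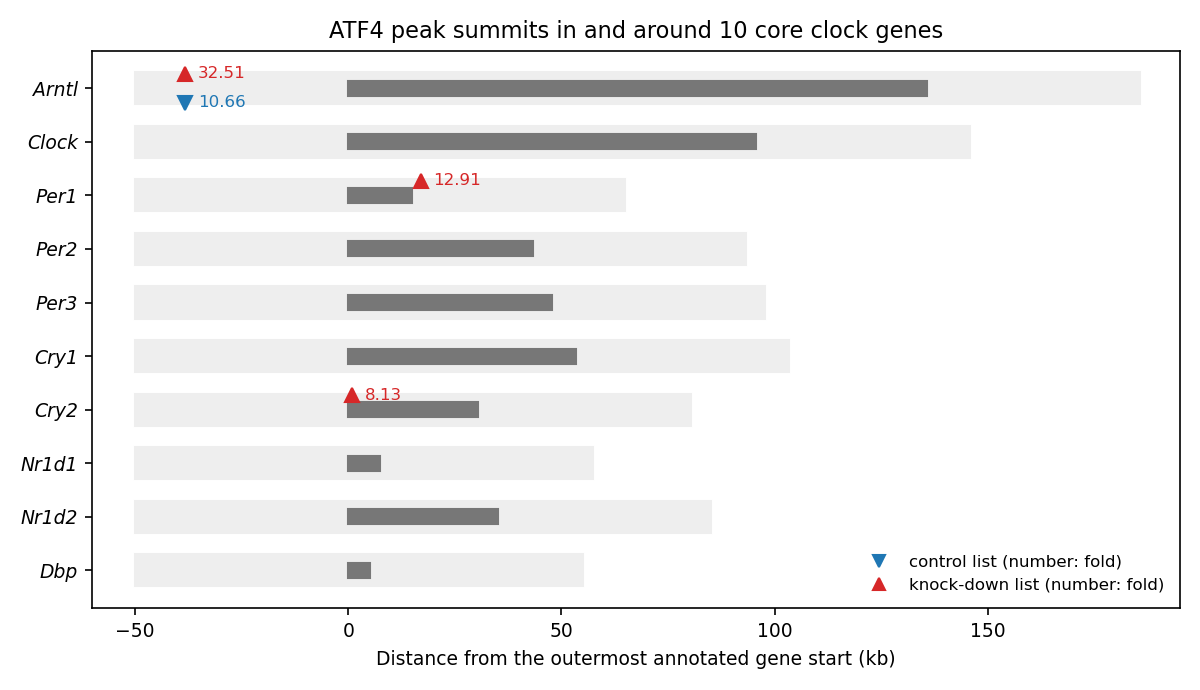
Summits of ATF4 peaks around the 10 core clock genes, in kb from the outermost annotated start of each gene along its strand (Per2, with no strand entry, in genome order). Dark bars are genes, pale bars the 50 kb windows, and numbers the authors' fold enrichment; Arntl carries a summit in both lists, Per1 and Cry2 in the knock-down list.

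Arntl encodes the partner of CLOCK, and its site was the strongest near any of the 10 genes. In control neurons the peak lay at chr7:113139955-113140413 (mm10), with 33 tags (95% exact Poisson interval 22.7 to 46.3). Its fold, the enrichment that the caller computed over its background, was 10.7. After Opa1 knock-down it lay at chr7:113139748-113140576, with 117 tags (96.8 to 140) and a fold of 32.5. The knock-down values are thus 3.05 times the control fold and 3.55 times the control tags. Tags are not scaled for depth, which the sources used here do not give, and 1 library stood behind each list, so the difference between conditions has no replicate check. The intervals cover counting error only.

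Within its own list the Arntl site ranked 12 of 93 by fold in control neurons, tied with 4 other peaks. Of the control peaks, 82.8% had a lower fold. In the knock-down list it ranked 6 of 952, tied with 1 other peak, and 99.3% had a lower fold. By tags it ranked 15 and 7, and by tags per kb of peak 10 and 8. The interval was 459 bp wide in control neurons and 829 bp after knock-down. Per kb of peak the tags were 71.9 and 141, closer to each other than the tags themselves.

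The positions of both summits differed by 22 bp, against a median gap of 32 bp over the 80 sites where a control peak overlapped a knock-down peak. In peaks of the form to which all clock sites belong, the deposited summit is the middle of the interval within 1 bp, in 84 of 84 control and 886 of 886 knock-down peaks. A summit here therefore marks the centre of a peak and not a measured maximum. Distances to a gene are accurate to the peak width at best.

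The site sits far from the start of Arntl. The knock-down summit was 38308 bp upstream of the outermost annotated base of the gene, and 67302 bp upstream of the nearer of its 2 RefSeq promoter starts. Both starts lie inside the annotated gene, which begins at chr7 position 113178471 and spans 136 kb. The summit lay inside 4930543E12Rik, an lncRNA gene on the opposite strand, 1852 bp from that gene's start. This start, whose promoter is printed above, was the nearest annotated one to the site. A further lncRNA gene, Gm33659, began 11438 bp away towards Arntl. Summits inside an lncRNA gene made up 11.8% of control and 9.24% of knock-down summits.

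Arntl was the 1 coding gene within 50 kb of the site. The next coding genes were Btbd10, 175 kb away beyond Arntl, and Rassf10, 183 kb away on the other side. The next summit on chromosome 7 was 3.65 Mb away among its 8 control peaks and 1.34 Mb away among its 51 knock-down peaks. Lying at least as far from any coding gene as this site were 23.7% of control and 25.5% of knock-down summits. The assignment to Arntl rests on distance alone, and no contact or expression was measured.

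**Figure D2:**
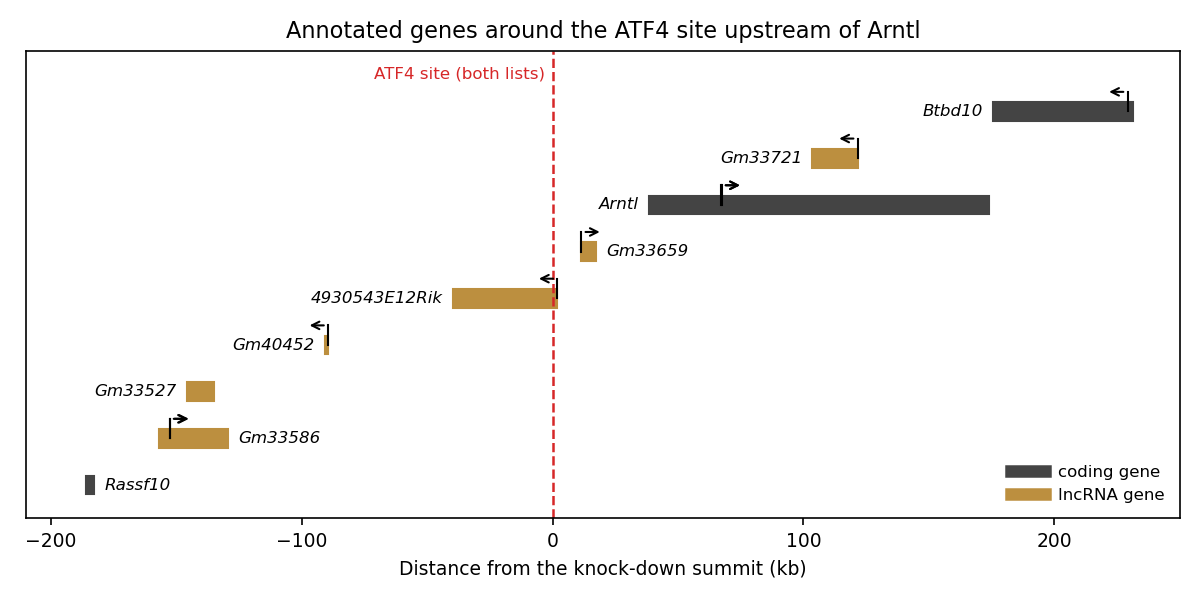
Annotated coding (dark) and lncRNA (brown) genes within 200 kb of the ATF4 site upstream of Arntl, in kb from the knock-down summit (dashed line); bent arrows mark RefSeq promoter starts and their strand. The summit lies inside 4930543E12Rik, 1852 bp from its start and 67302 bp from the nearer promoter start of Arntl.

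Compared with the other sites present in both lists, the fold ratio at Arntl was in the upper part of the range. The ratio of knock-down to control fold was 3.05 at Arntl and had a median of 2.25 over the 80 sites, Arntl included (quartiles 1.77 and 2.62, range 0.762 to 5.08). Of the 79 other sites, 68 had a lower ratio than Arntl and 11 a higher one. The site was chosen for its fold, so this place is a description. By tags per kb the ratio was 1.96 at Arntl against a median of 1.53, and again lower at 68 sites. The lists were called separately from 1 library each, so these ratios describe the lists.

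The 3 shared sites most like the Arntl site, by the distance between their pairs of log2 folds, were at Auts2, Mbd6 and H4c14. The site inside Auts2, a neurodevelopmental gene, had folds of 10.7 (control) and 30.1 (knock-down). The site inside Mbd6, which neighbours Ddit3 (CHOP), had folds of 10.04 and 34.4. The distance from that site to Ddit3 was not measured, so its assignment to Mbd6 rests on overlap alone. The site 127 bp from the histone H4 gene H4c14 had folds of 9.42 and 31.6. Of these, the H4c14 site lay beside its gene and the other 2 inside theirs, whereas the Arntl site lay between coding genes.

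Among shared sites over 20 kb from any coding gene, of which there were 17, the Arntl site had the highest knock-down fold. It was followed by sites whose nearest coding genes were Creb3l1 (31.4 kb away, fold 29.6), Sash1 (69.3 kb, 21.0), Arl4a (456 kb, 20.6) and St3gal1 (143 kb, 20.6). In the control list the Creb3l1 site had the higher fold, 13.2 against 10.7 at Arntl. The Arntl site was chosen for its fold, so its first place by knock-down fold is a description and nothing is read from it.

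**Figure D3:**
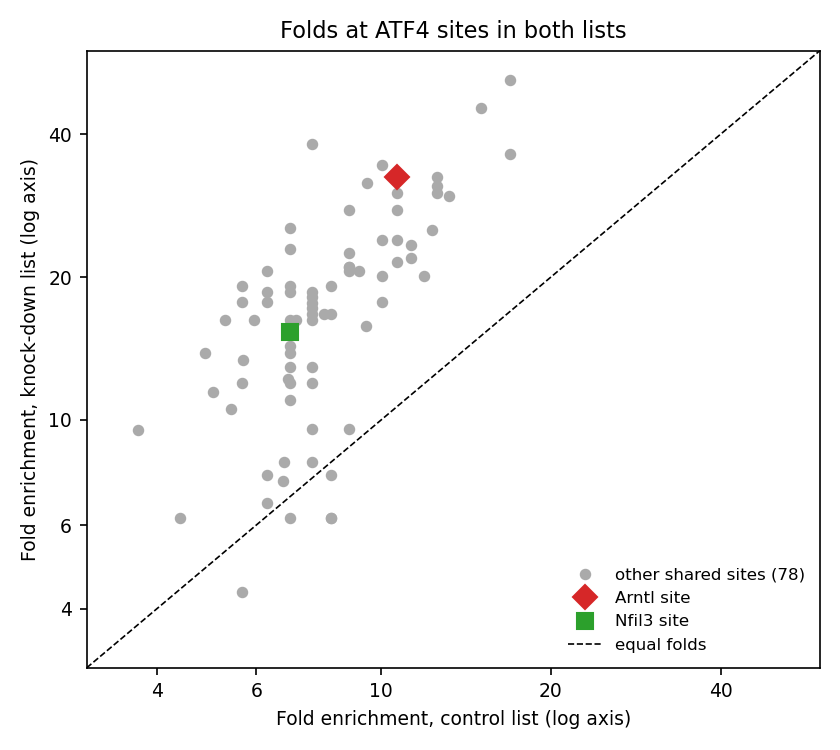
Authors' fold enrichment at the 80 sites found in both lists, control on the horizontal and knock-down on the vertical axis (both log), 1 point per site. The Arntl site (diamond) stands at 10.7 and 32.5 and the Nfil3 site (square) at 6.9 and 15.3, both above the line of equal folds.

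Clock, the other gene of the positive arm, had no listed summit in its window. Its nearest summits were 20.8 Mb away among control peaks and 4.24 Mb away among knock-down peaks, the latter the longest distance of any member without a site in that list.

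In the repressor arm, Per1, whose transcription responds rapidly to clock-resetting stimuli, had a summit in the knock-down list alone. The peak lay at chr11:69111757-69112353 (mm10), 2091 bp beyond the 3′ end of Per1 and 11904 bp from the nearer of its 2 RefSeq promoter starts. Its fold was 12.9, with 34 tags (95% exact Poisson interval 23.5 to 47.5). That fold was above 91.2% of the 872 knock-down peaks with no control partner, whose median fold was 7.65. By other measures the Per1 peak stood lower. Among all 952 knock-down peaks it ranked 121 by fold, tied with 15 others. It ranked 299 by score, 329 by tags and 309 by tags per kb of peak. The nearest control summit to Per1 was 17.6 Mb away.

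The Per1 site stood in a gene-dense stretch, so its assignment is shared. Within 50 kb lay 6 coding genes, among them Hes7, a Notch-regulated repressor 6850 bp away, and Vamp2, a synaptic vesicle SNARE 19675 bp away. The median over knock-down peaks was 1 coding gene. The nearest annotated features were 2 transfer RNA genes, 1056 and 1518 bp from the summit, on the Per1 side. A tRNA gene within 2 kb was seen for 4 of 952 knock-down summits (0.42%) and for 0 of 93 control summits.

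Cry2, which encodes a repressor that binds CLOCK and BMAL1 with PER, had a summit inside the gene in the knock-down list alone. The peak lay at chr2:92432834-92433422 (mm10), with its summit 940 bp downstream of the RefSeq start, in the first part of the gene. The Cry2 promoter printed above ends before the peak. The fold was 8.13, with 31 tags (95% exact Poisson interval 21.1 to 44.0), close to the middle of the knock-down peaks with no control partner, of which 51.6% had a lower fold. It was the 1 member site within 1 kb of a start of its own gene. Within 50 kb lay 4 coding genes, Cry2 included, with Slc35c1 the next at 19635 bp. The nearest control summit to Cry2, 348 kb away, was that of the shared Creb3l1 site named above.

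Per2, Per3 and Cry1 had no listed summit in their windows. Their nearest knock-down summits were 1.48, 1.22 and 1.6 Mb away, and their nearest control summits 6.17, 5.42 and 25.2 Mb away.

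The REV-ERB genes and Dbp had none either. Nr1d1 was 1.37 Mb and Nr1d2 1.71 Mb from the nearest knock-down summit. From the nearest control summit they were 1.55 and 21.0 Mb away. Dbp, a transcriptional activator at D-boxes, came nearest to the 50 kb limit from outside, with a knock-down summit 88635 bp away (fold 8.76). The member nearest the limit from inside was Arntl, at 38308 bp. In the control list the member next after Arntl was Cry2, and Dbp followed at 0.886 Mb.

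A gene without a listed peak is not shown to be unbound. The weakest listed peaks had a fold of 3.71 (control) and 3.18 (knock-down), and the sources used here do not state what a called peak required. Per1 and Cry2 peaks in the knock-down list therefore do not show a gain over control.

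Beyond the core, 26 other clock-related genes were taken from a list chosen with earlier results of these data known. Of these, 1 had a summit inside or within 50 kb among control peaks and 4 among knock-down peaks. The shares of all coding genes were 0.927% and 6.23%. Among the 4, Gsk3b, Fbxw11 and Rora span 100 kb or more, the class with a knock-down share of 12.1%. Npas2, Rorb and Btrc are in the same class and had no summit in their windows. Nothing is read from these counts. Nfil3, which encodes a repressor that competes with DBP at D-boxes, had a site in both lists. Its control peak had a fold of 6.9 and 20 tags (95% exact Poisson interval 12.2 to 30.9). Its knock-down peak, at chr13:52976460-52977274 (mm10), had a fold of 15.3 and 57 tags (43.2 to 73.9). The summit was inside the gene, 4171 bp downstream of the RefSeq start. The fold ratio of 2.22 was near the median of shared sites, with 35 of the 80 lower.

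The other 3 genes had a site in the knock-down list alone. Gsk3b, which encodes a kinase that phosphorylates several clock proteins, had a summit inside the gene, 6430 bp from its start, with a fold of 10.5 and 28 tags. Fbxw11, which encodes an F-box protein of the ligase that marks PER for degradation, had a summit 5224 bp beyond the gene, with a fold of 10.5 and 38 tags. Rora, which encodes an activator of Arntl transcription, had a summit far inside the gene, with a fold of 6.21 and 23 tags. That gene spans 735 kb, and 18.3% of the knock-down peaks with no control partner had a lower fold.

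The remaining 22 genes included the activators Npas2, Arntl2 and Rorb, the D-box factors Tef and Hlf, and the repressors Bhlhe40 and Bhlhe41. All 22 had their nearest knock-down summit at least 62.2 kb away, with a median of 0.737 Mb. None of the casein kinase genes Csnk1d, Csnk1e, Csnk1a1 and Csnk2a1 had a summit in its window. Across the 36 genes of both sets, Arntl and Nfil3 were the 2 with a site in both lists. The share of all coding genes with a site in both lists was not computed, so nothing is read from this count.

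**Figure D4:**
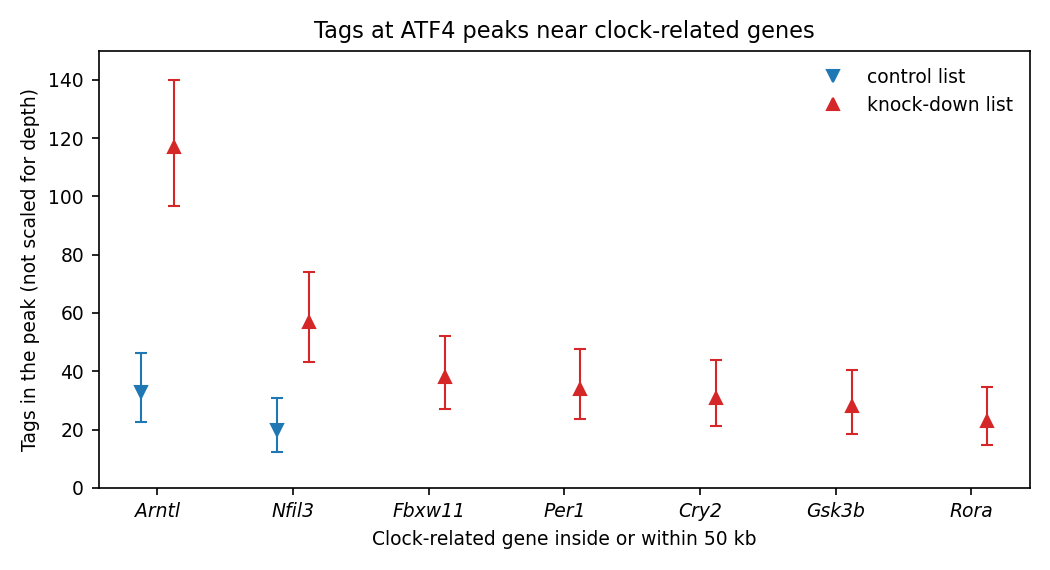
Tags in each ATF4 peak inside or within 50 kb of a clock-related gene, with exact 95% Poisson intervals (counting error only, not scaled for depth), 1 library per list. The Arntl site has 117 tags (knock-down) and 33 (control), the Nfil3 site 57 and 20, and the 5 other genes have a knock-down peak of 23 to 38 tags.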

How the data were processed

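ATF4 ChIP-seq peak lists of 1 control and 1 Opa1 knock-down library were used. Per the submitters' processing notes, the build was mm10 and the tools MACS2, deepTools and MultiQC. The sources used here do not name the aligner, the control library of the calls, its thresholds or the read depth. Chromatin was cross-linked for 30 minutes and sheared to about 150 bp, per the labels' protocols. For each peak the authors deposited a position, the number of tags, a fold enrichment (a ratio), a score, a summit and a length. The lists held 93 peaks with 2424 tags and 952 peaks with 33318 tags. Starts were read as 1-based. The hairpin named by each list gave its library.

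Genes were placed with RefSeq's GRCm38.p6 table, which has no exons, where 10 of 10 core and 26 of 26 other clock-related genes matched by symbol. Strands and starts came from its promoter windows. A gene counted where a summit lay inside it or within 50 kb. Shared sites overlapped by at least 1 bp. Intervals are exact at 95%. No test compared the conditions. The steps were tested on simulated peaks. The software was scipy 1.17.1, pandas 2.3.3, numpy 2.4.6 and matplotlib 3.10.9 under Python 3.11.15.

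The members, the other clock-related list, the motifs and the rule for named genes were chosen with earlier results of these data known. The rule took all members, every listed gene with a site, the coding neighbours of the Arntl site, the 3 shared sites nearest to it in log2 fold, and up to 5 shared sites over 20 kb from coding genes. Other named genes, and the tRNA genes, were chosen after their values were seen. Alternatives covered the window, the point of the peak, fold and score minimums, score form, assignment, matching and the measure of rank.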

Additional observations from a re-analysis of the deposited data

How the results depend on the processing

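Of 58 recomputed values, 46 stayed within 1.5 times a count or within the interval of a value. With a window of 5, 10 or 25 kb, 0 core clock genes had a control summit, since the 1 site lies at 38.3 kb. The other clock-related genes gave 0 in the control list at a fold of at least 10 and 0 in the higher-scoring part of that list, where the Nfil3 peak was not entered, and 7 in the knock-down list with a window of 100 kb. Tags at the Arntl site became 71.9 and 141 per kb by the change of unit. The core count in the knock-down list ran from 2 to 4. The share of shared sites with a lower fold ratio than Arntl, 85.0% with Arntl in the denominator, ran from 83.8% to 87.9%. With coding genes alone, 4 of the 5 motif shares left their interval: 3.6% for the composite core, 2.23% for the cAMP response element, 7.84% for the E-box and 2.32% for the REV-ERB/ROR core. No paired analysis was possible because a single library stood for each condition. Read depth is unknown, so a gene without a listed peak is not shown to be unbound.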

Other observations

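Many of the deposited folds lay on a regular step. Folds of 69 of the 84 control peaks whose length equals their interval were whole multiples of 0.627, and those of 710 of the 886 such knock-down peaks were whole multiples of 0.478, within 0.0055 plus 0.00005 for each multiple. The Arntl site stood at 17 multiples (control) and 68 (knock-down), a ratio of 4.0, against 3.05 for the folds and 3.55 for the tags. If a multiple is 1 tag over a uniform background, with no constant added to either, the background can be read from the step. The sources used here do not state that form of the fold. Under it the background would be 1.59 (control) and 2.09 (knock-down) tags per window, a ratio of 1.31. The window is not known, so these values are not densities.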
